A study of Mus musculus with 6 samples.

Results

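*Sox* genes encode transcription factors that bind DNA through a shared high-mobility-group (HMG) box. This account follows 10 named *Sox* genes, taken by symbol from the 32285 genes of the deposited count table: *Sox2*, *Sox21*, *Sox4*, *Sox11*, *Sox5*, *Sox8*, *Sox9*, *Sox10*, *Sox17* and *Sox18*. All 10 symbols were found. Cells came from the striatum of wild-type male C57BL/6 mice, either at postnatal day 3 (P3) or as young adults of about 3 months (3m), and were enriched on magnetic beads for the astrocyte surface antigen ACSA2. Each age was represented by 3 independent preparations, each of several pooled animals, so that replicates are preparations and not single mice. No genotype or treatment differed between the groups, and the subventricular zone was left out of the dissection. Single-cell RNA sequencing with the droplet-based 10x Genomics 3′ kit gave 16690 cell barcodes, of which 14373 carried the authors' cell type annotation.

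Library totals were 5471573 to 10522151 unique molecular identifiers (UMIs, each marking 1 captured RNA molecule) at 3m and 32193875 to 37795021 at P3. The authors' astroglial subset of 9992 cells contributed 1157485 to 1843998 UMIs per library at 3m and 22327104 to 30617140 at P3. Their median was 2977 to 5326 UMIs per cell at 3m and 5456 to 9665 at P3, so low-abundance *Sox* genes were measured more precisely at P3. P3 replicate 3 stood apart from the other P3 libraries. It held 719 of the 735 cells of astroglial sub-cluster 4, 273 of the 284 of sub-cluster 12 and 346 of the 349 cells of the cluster named END_12, and these 3 groups have almost no cells without it. Barcode sequences found in more than 1 library numbered 37. Expression is given as CPM, the UMIs of a gene per 1000000 UMIs of the same cells, and levels are compared within a gene only.

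*Sox* genes fall into subgroups with related roles. *Sox2* (SoxB1) maintains neural stem and progenitor cells, whereas *Sox21* (SoxB2) counteracts SoxB1 activity. *Sox4* and *Sox11* (SoxC) act in progenitors and newly formed neurons. Among the SoxE genes, *Sox9* drives gliogenesis and stays on in astrocytes, *Sox10* drives oligodendrocyte differentiation and myelin gene expression, and *Sox8* is found with both. *Sox5* (SoxD) lacks a transactivation domain of its own and modulates other Sox factors, and *Sox17* and *Sox18* (SoxF) act in the endothelium of blood vessels.

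The members differ in gene structure, and 4 of the 10 consist of a single exon. In the GENCODE annotation of GRCm38, *Sox2* occupies chr3:34650405-34652461 on the plus strand, inside the non-coding gene *Sox2ot* on the same strand. *Sox4* lies at chr13:28948919-28953713 and *Sox11* at chr12:27334264-27342574, both on the minus strand, as do *Sox21* (chr14:118233232-118237030), *Sox5* (chr6:143828425-144781977), *Sox8* (chr17:25565892-25570686), *Sox10* (chr15:79154908-79165240), *Sox17* (chr1:4490931-4497354) and *Sox18* (chr2:181669836-181671640). *Sox9* lies on the plus strand at chr11:112782224-112787760. The single-exon genes are *Sox2*, *Sox21*, *Sox4* and *Sox11*. The core of the HMG box is printed below because it is what makes these genes one family. Each run is 27 coding bases read 5′ to 3′ from the GRCm38 transcript, within a coding exon sequence, and capitals mark the bases that differ from *Sox2*.
Sox2: aggcccatgaacgccttcatggtatgg
Sox21: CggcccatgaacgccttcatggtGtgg
Sox4: CggcccatgaacgccttTatggtGtgg
Sox11: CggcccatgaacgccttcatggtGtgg
Sox5: CgTccAatgaaTgccttcatggtGtgg
Sox8: CggcccatgaaTgccttcatggtGtgg
Sox9: CgAcccatgaacgccttcatggtGtgg
Sox10: aggcccatgaacgccttcatggtGtgg
Sox17: CggccGatgaacgccttTatggtGtgg
Sox18: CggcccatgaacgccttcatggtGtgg
*Sox10* differed from *Sox2* at 1 of these bases and *Sox5* at 5. Over 210 coding bases of the HMG box, the 6 pairs from the same subgroup (with *Sox2* and *Sox21* counted as 1 SoxB subgroup) shared 82.4% to 91.0% of bases, and the 39 other pairs shared 55.7% to 76.7%. *Sox4* and *Sox11* were the most similar pair at 91.0%.

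The order of each gene's levels over the authors' cell clusters separated a SoxB and *Sox9* pattern, a SoxC pattern, an oligodendrocyte lineage pattern and an endothelial pattern. These levels describe clusters that were built from the same genes, and the authors used *Sox9* and *Sox10* among their naming markers, so they are given without a test. Values are the mean ± SD over libraries with at least 20 cells of a class.

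*Sox2* was highest in P3 astrocyte clusters at 659 ± 52.0 CPM (n = 3 libraries), and the proliferating progenitor clusters (GPC) of P3 stood at 528 ± 29.9 CPM (n = 3), without overlap between their libraries. The P3 astrocyte cluster AST_P3_19 (429 ± 35.2 CPM, n = 2), 3m astrocytes (408 ± 25.7 CPM, n = 3) and P3 oligodendrocyte precursors (OPC, 387 ± 97.9 CPM, n = 2) overlapped. *Sox9* stood at 729 ± 258 CPM in P3 astrocytes, 458 ± 38.1 CPM in 3m astrocytes and 358 ± 82.1 CPM in progenitors (n = 3 each), with neighbouring classes overlapping throughout that order. *Sox21* reached 125 ± 18.5 CPM in P3 astrocytes against 42.2 ± 11.4 CPM in 3m astrocytes (n = 3 each).

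SoxC genes were not restricted to the astroglial lineage. *Sox4* was found at 795 CPM in the 53 P3 neurons (pooled cells) and at 598 ± 29.9 CPM in P3 OPC (n = 2), and P3 astrocytes (245 ± 18.8 CPM, n = 3), progenitors (240 ± 21.8 CPM, n = 3) and pericytes (225 ± 37.2 CPM, n = 3) overlapped. Microglia held 128 CPM at P3 and 121 CPM at 3m (pooled cells), and adult oligodendrocytes 2.50 CPM. *Sox11* followed with 624 CPM in the pooled P3 neurons, 228 ± 19.7 CPM in P3 OPC (n = 2), 218 ± 34.5 CPM in progenitors and 150 ± 24.4 CPM in P3 astrocytes (n = 3 each). The progenitor and astrocyte libraries did not overlap for *Sox11*.

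*Sox10* was confined to the oligodendrocyte lineage among classes with at least 50 cells, with 389 ± 22.6 CPM in P3 OPC (n = 2), 320 ± 40.0 CPM in 3m oligodendrocytes (ODC, n = 3) and under 10 CPM in each of the others. *Sox8* was highest in the same classes, at 265 ± 120 CPM in P3 OPC (n = 2) and 106 ± 28.7 CPM in 3m ODC (n = 3). Astrocytes held about the same *Sox8* level at both ages, 54.5 ± 3.39 CPM at 3m and 49.7 ± 8.08 CPM at P3 (n = 3 each, overlapping). *Sox5* was highest in P3 OPC (103 ± 13.1 CPM, n = 2) and P3 astrocytes (90.1 ± 9.63 CPM, n = 3), which overlapped.

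*Sox17* and *Sox18* marked the endothelial clusters. *Sox17* stood at 343 ± 99.6 CPM in the 3m cluster END_17 and 171 ± 35.3 CPM in the P3 cluster END_7, and *Sox18* at 550 ± 129 and 289 ± 56.0 CPM (n = 3 each). The cluster named END_12 did not follow this pattern. Its pooled levels were 909 CPM for *Sox9*, 432 CPM for *Sox2*, 63.4 CPM for *Sox17* and 76.8 CPM for *Sox18*. In the same cells the 7 astrocyte markers summed to 3076 CPM and the 6 endothelial markers to 1208 CPM, at a median of 1251 UMIs per cell. The markers there thus did not match the cluster's name alone. Haemoglobin genes summed to 82998 CPM in END_12, but also to 30138 CPM in END_17 and 17661 CPM in END_7. The P3 cells of END_13 held *Sox9* at 255 CPM and *Sox2* at 171 CPM as well (pooled cells).

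**Figure D1:**
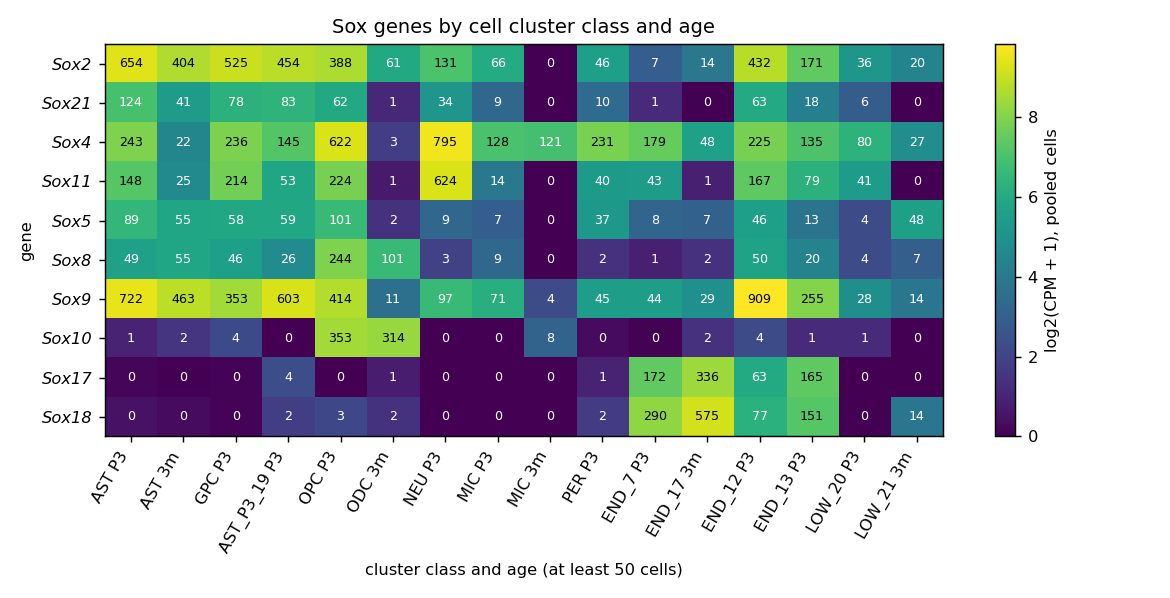
Heat map of 10 *Sox* genes (rows) over the authors' cluster classes at each age with at least 50 cells (columns). Colour is log2(CPM + 1) and the printed number the CPM of the pooled cells. *Sox17* and *Sox18* stood out in END_7 and END_17, *Sox10* in OPC and ODC, and *Sox4* and *Sox11* were highest in neurons (NEU). AST, astrocyte clusters; AST_P3_19, an astrocyte cluster kept apart; MIC, microglia; PER, pericytes; LOW, clusters that the authors labelled so.

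The main comparison asked how *Sox* expression differed between immature and mature astroglia. UMIs were summed per library over the astroglial subset and tested with edgeR's quasi-likelihood test across all 13530 genes that passed its low-count filter. Part of these cells sat in sub-clusters that the authors placed beside astroglia from outside the telencephalon. Their share was 7.98%, 47.8% and 13.9% in the 3m libraries and 7.61%, 29.2% and 51.5% in the P3 libraries. A gene was called when its Benjamini-Hochberg adjusted p was at most 0.05 and it changed at least 2-fold. Of the 8 members tested, 3 were called, and each was lower at 3m: *Sox4*, *Sox11* and *Sox21*. Among all genes tested, 32.1% were called in either direction and 16.3% were called lower, so the number of members called (3 of 8) was close to that of other genes. Fold changes come from the fit, which rescales libraries by the trimmed mean of M-values (TMM), and therefore differ from plain ratios of CPM.

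Both SoxC genes were lower in adult astroglia. *Sox4* measured 263, 226 and 238 CPM in the P3 libraries and 12.1, 24.9 and 25.8 CPM in the 3m libraries. The groups were far apart, with every P3 library above every 3m library. *Sox4* fell 9.83-fold (log2 fold change -3.30, SE 0.24, adjusted p = 2.11e-07), the largest difference among the 8 members. In telencephalic sub-clusters alone its log2 fold change was -4.14. *Sox11* measured 175, 136 and 183 CPM at P3 and 24.2, 32.0 and 16.98 CPM at 3m, without overlap, and fell 5.80-fold (log2 fold change -2.54, SE 0.22, adjusted p = 1.05e-06).

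The SoxC pair is also the one for which upstream sequence is printed, since these genes moved together. RefSeq sequences of the 250 bases before the start (GRCm38.p6) were found for 6 of the 10 members. Capitals mark CCAAT or its reverse complement ATTGG, the letters of the CCAAT box.
Sox4, chr13:28953700-28953949, minus strand: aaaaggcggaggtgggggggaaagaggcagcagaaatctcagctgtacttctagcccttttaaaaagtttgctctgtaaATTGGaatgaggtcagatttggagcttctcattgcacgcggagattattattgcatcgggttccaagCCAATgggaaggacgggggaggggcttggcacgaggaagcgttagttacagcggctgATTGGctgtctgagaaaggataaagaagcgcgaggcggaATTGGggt
Sox11, chr12:27342719-27342968, minus strand: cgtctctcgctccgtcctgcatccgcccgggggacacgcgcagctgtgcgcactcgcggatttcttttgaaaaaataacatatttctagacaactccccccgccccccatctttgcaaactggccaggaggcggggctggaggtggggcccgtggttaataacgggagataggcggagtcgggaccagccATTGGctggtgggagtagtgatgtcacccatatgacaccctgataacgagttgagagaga
The window held 4 such runs for *Sox4*, 1 each for *Sox11* and *Sox2*, and 0 for *Sox21*, *Sox5* and *Sox8*. For *Sox4* the end of the window overlaps the gene model given above, and the last of its 4 runs lies in that overlap. For *Sox5* the window, chr6:143947107-143947356, lies within the gene model given above and not before its 5′ end. Of 32851 promoters of the same length, 33.8% held at least 1, so the match is a description only. Letters of other motifs were counted as well. Those of the GC box (32.7% of promoters) occurred 2 times each for *Sox2*, *Sox11* and *Sox8* and 0 times for *Sox4*, *Sox21* and *Sox5*. Those of a Sox motif (27.7% of promoters) occurred 1 time for *Sox5* and 0 times for the others.

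Of the SoxB members, *Sox21* was called and *Sox2* was not. *Sox21* measured 116, 96.1 and 130 CPM at P3 and 55.3, 34.7 and 36.7 CPM at 3m, and fell 2.39-fold (log2 fold change -1.26, SE 0.19, adjusted p = 1.34e-04). *Sox2* measured 662, 575 and 642 CPM at P3 and 435, 384 and 403 CPM at 3m. Although these libraries did not overlap, neither did those of 59% of all genes tested, and the fitted difference of -0.43 (log2, SE 0.17, adjusted p = 0.0545) was under 2-fold and was not called. The adjusted p crossed the threshold under other settings, as at 0.0071 without scaling beyond library totals, while the fold remained below 2. *Sox3*, the other SoxB1 gene besides *Sox1* and *Sox2*, fell (log2 fold change -3.67, SE 0.28, adjusted p = 2.92e-07). It measured 39.2 ± 3.48 CPM in P3 and 2.61 ± 0.84 CPM in adult libraries (n = 3 each).

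The SoxE and SoxD genes were not called. *Sox9*, the gliogenic factor, measured 529, 504 and 893 CPM at P3 and 445, 501 and 429 CPM at 3m. The 2 lower P3 libraries lay next to the highest 3m library, and P3 replicate 3 was far above all others. Its log2 difference was -0.28 (SE 0.22, adjusted p = 0.306), and 0.03 without P3 replicate 3. *Sox8* showed 0.37 (SE 0.16, adjusted p = 0.0773) and *Sox5* -0.38 (SE 0.17, adjusted p = 0.0779). *Sox10* lay between 0.86 and 3.40 CPM in each library and gave 0.40 (SE 0.61, adjusted p = 0.617).

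*Sox17* and *Sox18* were under the low-count filter in astroglia. *Sox17* had 13 UMIs in P3 replicate 3 and 0 in each other library, and after thinning 0 of 906 adult astroglia held a UMI, which allows a share of cells with a UMI of up to 0.331% and sets no limit on cells that express the gene. *Sox18* had 5, 7 and 14 UMIs at P3 and 0, 1 and 0 at 3m. Markers of other cell types moved with age in these astroglial sums. All 6 oligodendrocyte markers were detected in each 3m library, summing to 98.5 to 278 CPM, against 0.72 to 1.42 CPM at P3, and their part in the *Sox8* and *Sox10* values was not tested. For microglia, where *Sox4* is present, the 6 markers summed to 6.79 to 54.2 CPM at 3m and 0.27 to 1.14 CPM at P3. Other marker lists moved with *Sox4* and *Sox11*. The 5 OPC markers summed to 103 to 168 CPM at P3 and 9.22 to 19.9 CPM at 3m, and 3 of the 4 tested fell (*Cspg4*, *C1ql1* and *Vcan*). The 3 proliferation markers summed to 350 to 455 CPM at P3 and 0 to 0.54 CPM at 3m, and all 3 fell. The 5 ependymal markers summed to 40.9 to 181 CPM at P3 and 5.18 to 10.3 CPM at 3m, and the 3 tested fell. Their part in the SoxC difference was not tested.

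**Figure D2:**
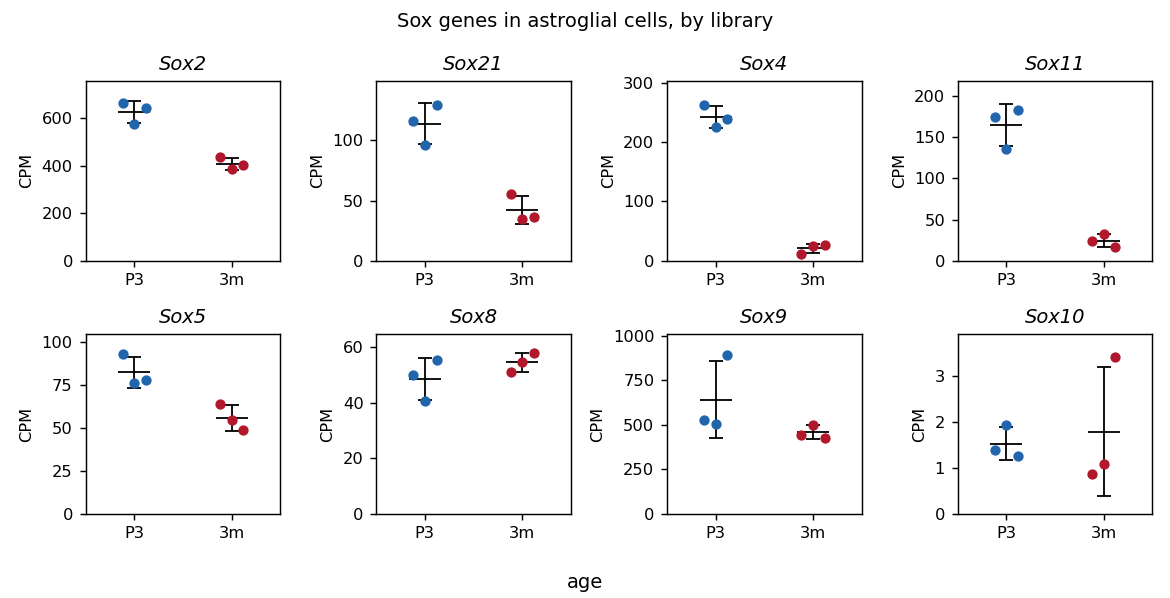
CPM of 8 *Sox* genes in summed astroglial cells, 1 panel per gene, by age. Points are libraries (3 per age), the long bar is the mean and the whiskers 1 SD. *Sox4* and *Sox11* lay far apart between the ages, and the spread of *Sox9* at P3 came from 1 library at 893 CPM.

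The difference was also seen in how many cells held the transcript. Each cell was thinned to 2000 UMIs, which left out 1113 P3 and 212 3m astroglial cells with fewer. *Sox4* was found in 35.4 ± 3.82% of P3 and 2.73 ± 1.11% of 3m astroglia (n = 3 libraries each), compared with 68.3% and 6.26% of the pooled cells before thinning. *Sox11* was found in 24.3 ± 3.52% and 4.83 ± 1.65%, and *Sox21* in 21.5 ± 3.54% and 7.32 ± 1.16%. *Sox2* (71.1 ± 3.24% and 53.1 ± 1.75%) and *Sox9* (65.8 ± 8.92% and 51.2 ± 3.78%) were still present in 48.7% of cells or more in every library.

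Microglia, which should lack most members, are given as a baseline, and whether free RNA or doublets gave their shares was not tested. Their median depth was 6223 UMIs at P3 and 3940 UMIs at 3m, compared with 7307 and 3631 UMIs in astroglia. *Sox9* was found in 9.42 ± 8.70% and *Sox2* in 5.33 ± 4.65% of microglia (n = 3) at P3, and both at 3m in 0 of 53, which allows a share of cells with a UMI of up to 5.66%. *Sox4* was found in 20.3 ± 7.48% of P3 and 13.2 ± 3.13% of 3m microglia, above its share in adult astroglia (2.73%) while the other members but *Sox10* were at 0 in 3m microglia, so microglia are no blank for *Sox4*. *Sox10*, at 0.30% of 3m astroglia and 1 of 53 microglia, was not above the microglial share. Counting members per cell, 333 of 7761 P3 astroglia (4.29%) and 170 of 906 adult astroglia (18.8%) held none of the 10 at this depth.

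Pseudotime, an ordering of astroglia from proliferating progenitors to adult astrocytes that the authors computed from expression, placed these differences along the lineage. It was available for 5894 cells, and levels are given per bin of the authors with at least 50 cells of one age. In P3 replicate 3 these cells did not all come from telencephalic or proliferating sub-clusters, so the P3 bins are not purely telencephalic. Bins 2 to 14 held P3 cells and bins 16 to 18 held 3m cells, so bin and age cannot be told apart, and the ordering itself used these genes' cells. *Sox4* stayed between 220.3 and 300 CPM from bin 2 to bin 14 without a steady decline, and was 9.50 to 17.96 CPM in the adult bins. *Sox11*, by contrast, was already lower within P3, from 255 CPM in bin 6 to 119 CPM in bin 14, before 23.5 to 31.4 CPM in the adult bins. *Sox21* went the other way within P3, from 35.6 CPM in bin 2 to 134 CPM in bin 14, and was 31.4 to 48.6 CPM in the adult bins.

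*Sox9* and *Sox2* were highest late in the P3 range. *Sox9* was 206 CPM in bin 2, 251 CPM in bin 10 and 681 CPM in bin 14, and 475 to 486 CPM in bins 16 to 18. *Sox2* was 391 CPM in bin 2, 673 CPM in bin 14 and 404 to 415 CPM in the adult bins. For *Sox8*, all bins lay between 33.0 and 67.2 CPM.

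**Figure D3:**
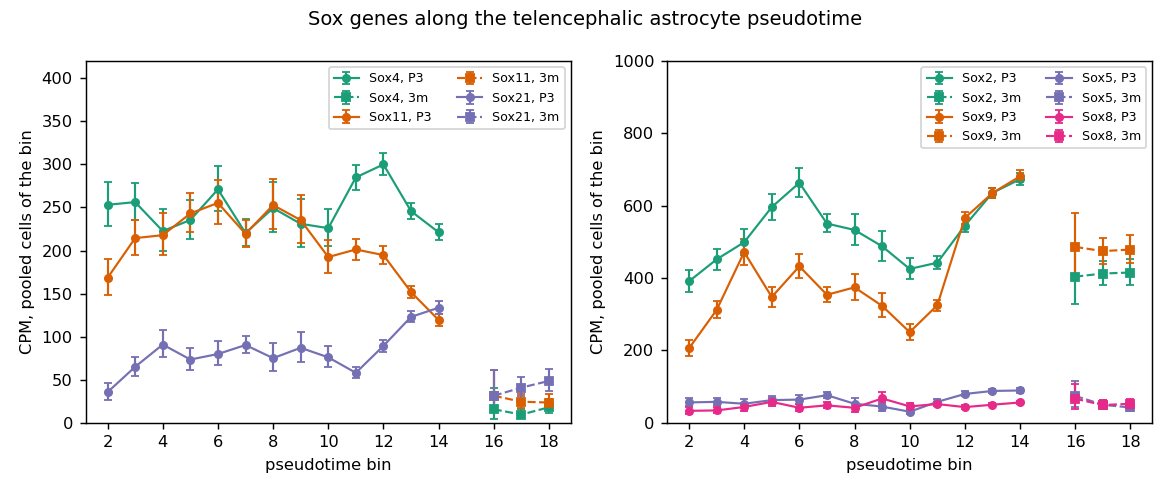
CPM of the pooled cells (y axis) by pseudotime bin (x axis), for bins with at least 50 cells of one age. Circles with solid lines are P3 and squares with dashed lines 3m, and bars are exact 95% Poisson intervals, which cover counting error only. *Sox4* stayed at 220.3 CPM or more up to bin 14 while *Sox11* was 119 CPM there, and both were under 32 CPM in adult bins.

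Cycling astroglia of P3 held more *Sox11* and less *Sox9* than other P3 astroglia, each by less than 2-fold. Cells were called cycling when at least 2 of *Mki67*, *Top2a* and *Cdk1* had a UMI after thinning, which gave 606 cycling and 7155 other cells, summed per library and compared within libraries. Of the 8 members tested, 1 was called, *Sox10*, against 15.7% of 13546 genes called in either direction and 7.26% called higher. *Sox10* measured 3.72, 6.37 and 2.17 CPM in cycling and 0.96, 1.24 and 1.03 CPM in other cells (log2 fold change 2.01, SE 0.35, adjusted p = 4.31e-05, edgeR's quasi-likelihood test). The OPC marker *Pdgfra* rose in the same comparison (log2 fold change 5.12), and at least 2 of 5 OPC markers had a UMI in 76 of the 606 cycling and 421 of the 7155 other cells. Without those cells *Sox10* was no longer called (1.01, SE 0.60, adjusted p = 0.161).

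Another 4 members passed the adjusted p threshold at less than 2-fold, as did many genes in this comparison, where 50.9% of those tested passed on the adjusted p alone. *Sox9* measured 340, 335 and 467 CPM in cycling and 565, 530 and 920 CPM in other cells, lower in 3 of 3 libraries (log2 difference -0.70, SE 0.08, adjusted p = 3.94e-08). *Sox21* (-0.47) and *Sox5* (-0.29) were also lower in all 3 libraries. *Sox11* was higher in all 3, at 231, 187 and 258 CPM against 164, 128 and 167 CPM (0.65, SE 0.07, adjusted p = 2.61e-08). *Sox2* (-0.13), *Sox4* (0.04) and *Sox8* (0.05) did not pass the threshold.

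*Sox9* levels were spread widely over the P3 astroglial sub-clusters. Pooled levels ran from 354 and 361 CPM in the proliferating sub-clusters 8 and 6 to 1000 CPM in sub-cluster 3, 1045 CPM in sub-cluster 10, 1142 CPM in sub-cluster 12 and 1721 CPM in sub-cluster 4. The last pair came almost entirely from P3 replicate 3 and had medians of 986 and 1048 UMIs per cell. This library was the highest of the 3 for *Sox9* in each of the 9 sub-clusters in which every P3 library had at least 20 cells, for instance at 811 CPM against 561 and 528 CPM in sub-cluster 0. It was also the highest in microglia, with 155 CPM against 53.4 and 12.1 CPM. Whether free RNA had a part in its *Sox9* level was not tested. *Sox8* and *Sox21* were highest in P3 replicate 3 in 8 of the 9 sub-clusters, *Sox11* in 7, *Sox2* in 5, *Sox4* in 4 and *Sox5* in 2.

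In adult sub-clusters 7, 13 and 14, *Sox9* was 459 to 500 CPM and *Sox2* 400 to 457 CPM, while sub-cluster 16 had 153 and 137 CPM. Sub-cluster 16 had a median of 1688 UMIs per cell. *Sox4* was 14.3 CPM in sub-cluster 7, 10.3 CPM in 14, 34.5 CPM in 13 and 60.3 CPM in 16. Sub-cluster 16 held 248668 UMIs in all, and most of its *Sox4* UMIs came from a single cell with 12. Its *Sox4* level is therefore not shown to be above that of the other adult sub-clusters.

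By comparison with a reference dataset, the authors placed adult sub-clusters 13 and 16 and some P3 sub-clusters beside astroglia from outside the telencephalon (the forebrain division that holds the striatum), and treated an origin in neighbouring regions as possible. These cells are called non-telencephalic here and the others telencephalic, with the proliferating P3 sub-clusters 6 and 8 in neither. An interaction term asked whether the age difference depended on this grouping, with UMIs summed per library and region and the library as a block. Of the 7 members tested, 1 was called, *Sox4*, against 16.7% of 10721 genes in either direction and 8.07% in the same direction. In telencephalic astroglia *Sox4* measured 273, 256 and 260 CPM at P3 and 10.0, 15.5 and 13.7 CPM at 3m. In non-telencephalic astroglia it measured 170, 156 and 193 CPM at P3 and 48.8, 35.5 and 91.2 CPM at 3m. The order of the regions was thus opposite at the 2 ages, without overlap at either. The age difference was smaller outside the telencephalon by 2.62 on the log2 scale (SE 0.37, adjusted p = 2.89e-06).

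The adult non-telencephalic values rest on few molecules, with 3, 31 and 21 *Sox4* UMIs in 17, 261 and 50 cells. A single cell of sub-cluster 16 held 12 of the 21 UMIs of 3m replicate 3, and 9 of the 31 UMIs of 3m replicate 2 came from 4 cells placed in P3 sub-clusters. Without sub-cluster 16 the interaction was 2.21 (adjusted p = 1.90e-05), and with each age restricted to its own sub-clusters and sub-cluster 16 left out it was 1.96 (SE 0.45, adjusted p = 5.28e-04). Without 3m replicate 3 it was 2.03. Markers of other cells differed between these sums: oligodendrocyte markers amounted to 408 to 4526 CPM in non-telencephalic and 40.1 to 51.6 CPM in telencephalic adult sums, and microglia markers to 4.34 to 179 and 7.25 to 10.3 CPM. Their part in the result was not tested.

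*Sox9* and *Sox8* passed the adjusted p at less than 2-fold, as 21.6% of genes tested did on the adjusted p alone. At P3 *Sox9* was higher outside the telencephalon in every library (742, 750 and 1300 CPM against 590, 500 and 853 CPM). At 3m it was lower there in every library (244, 443 and 412 CPM against 456, 554 and 432 CPM). The *Sox9* interaction was -0.83 (SE 0.22, adjusted p = 0.00519, edgeR's quasi-likelihood test). Sub-cluster 16, with less *Sox9* than the other adult sub-clusters, gave 14 of the 17, 89 of the 261 and 18 of the 50 adult non-telencephalic cells. Its part in the adult order of the regions was not tested. Over 15 alternatives, which include leaving out sub-cluster 16, the *Sox9* interaction ran from -1.04 to -0.65. For *Sox8* the interaction was 0.83 (SE 0.29, adjusted p = 0.0358), with 41.8, 27.97 and 48.5 CPM outside and 52.2, 44.8 and 59.99 CPM inside the telencephalon at P3. The adult *Sox8* values were 16.3, 66.3 and 69.5 CPM outside and 52.9, 44.3 and 55.6 CPM inside, so the adult libraries did not share one direction.

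**Figure D4:**
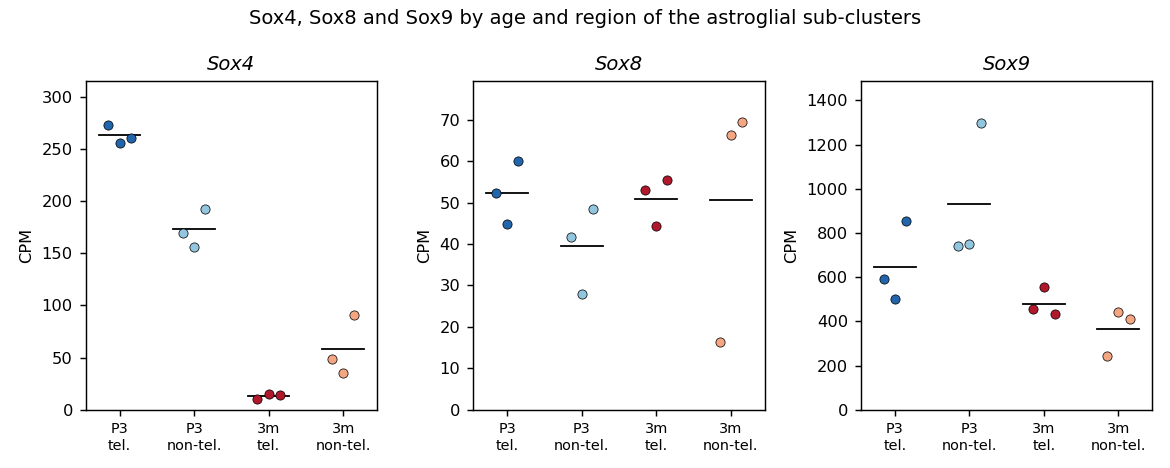
CPM of *Sox4*, *Sox8* and *Sox9* by age and by likely region of astroglial sub-clusters after the authors' comparison with a reference (tel., telencephalic; non-tel., non-telencephalic). Points are libraries (3 per group) and the bar is their mean. *Sox4* was higher in telencephalic cells at P3 (256 CPM or more) and lower there at 3m (15.5 CPM or less).

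In the endothelium, the question was whether age went with the same *Sox* differences as in astroglia. Cluster END_7 of P3 (173, 172 and 260 cells, median of 26510 UMIs in the cluster) was compared with cluster END_17 of 3m (59, 47 and 57 cells, median of 5953), so cluster and age cannot be told apart. Of the 7 members tested, 2 were called, *Sox4* and *Sox11*, both lower at 3m, against 22.3% of 10271 genes in either direction and 10.7% called lower. *Sox4* measured 211, 167 and 156 CPM at P3 and 48.0, 42.8 and 51.1 CPM at 3m and fell (log2 fold change -1.99, SE 0.21, adjusted p = 5.39e-07). *Sox11* measured 44.5, 40.2 and 42.5 CPM at P3, and the 3m libraries held 0, 1 and 0 UMIs. *Sox11* fell (adjusted p = 6.96e-07), and the pooled ratio of P3 over 3m was 52.6, with a counting interval of 9.41 to 2080.

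The SoxF genes had higher levels in the adult cluster but did not reach 2-fold. *Sox17* measured 138, 168 and 208 CPM at P3 and 368, 428 and 234 CPM at 3m (log2 difference 0.88, SE 0.22, adjusted p = 0.0046). Without 3m replicate 3 it was called at 1.03, and without P3 replicate 3 at 1.08. *Sox18* measured 350, 278 and 239 CPM at P3 and 697, 494 and 457 CPM at 3m (0.84, SE 0.20, adjusted p = 0.00277). Neither gene's libraries overlapped between the ages, as was the case for 45.1% of genes tested, and 33.1% passed on the adjusted p alone. The sum of the 6 endothelial markers moved the same way, from 3718 to 5230 CPM at P3 to 9081 to 14306 CPM at 3m. The sum of the 6 mural markers did so too, from 1915 to 3337 CPM to 6211 to 6975 CPM. Singly, 3 of the 6 endothelial and 2 of the 6 mural markers were called higher, and 0 lower. Of all genes tested, 22.3% were called in either direction.

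Among 8 endothelial genes known as SoxF targets or partners, 1 rose and 1 fell, with a median log2 fold change of 0.40 beside -0.02 over all genes tested. *Vcam1*, a leukocyte adhesion molecule, rose (4.55), and *Gja4*, an arterial gap junction protein, fell (-1.51). *Sox13*, a SoxD gene, rose (1.11, SE 0.24), and *Sox9* (-0.66, adjusted p = 0.0869), *Sox2* (0.96, adjusted p = 0.218) and *Sox5* (-0.26, adjusted p = 0.754) did not pass the threshold.

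**Figure D5:**
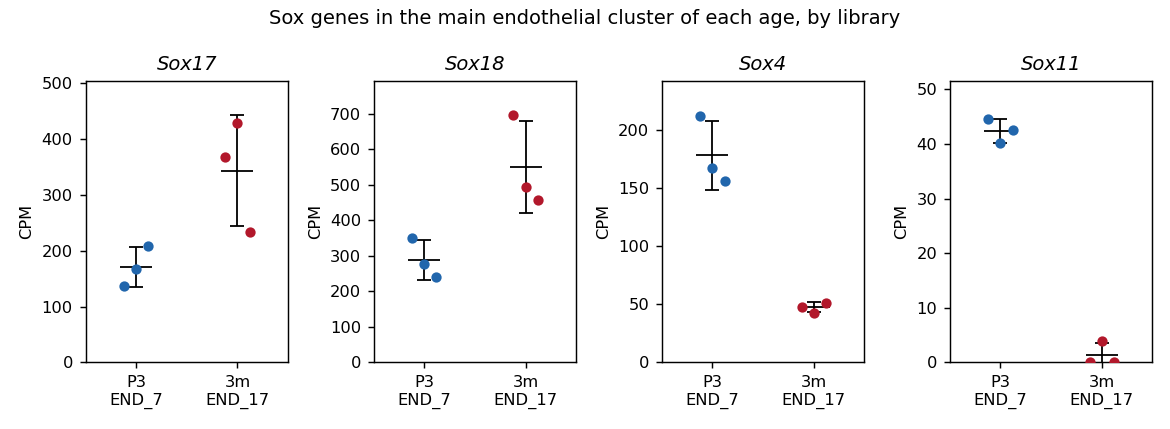
CPM of *Sox* genes in the main endothelial cluster of each age (END_7 at P3, END_17 at 3m). Points are libraries (3 per age), the long bar is the mean and the whiskers 1 SD. *Sox4* and *Sox11* were lower at 3m and *Sox17* and *Sox18* higher, without overlap between the ages.

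Summing every barcode of a library shows the members as the whole preparation would. Here 8 of the 10 were called, against 34.5% of 15407 genes in either direction, 18.4% higher and 16.1% lower. In such sums fewer cells of a type and less RNA per cell cannot be told apart, and astroglia made up 26.6%, 39.0% and 36.5% of annotated cells at 3m against 78.9%, 85.4% and 75.1% at P3. Oligodendrocytes made up 59.2%, 52.5% and 53.0% at 3m and 0% at P3.

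The SoxE genes *Sox10* and *Sox8* rose. *Sox10* measured 1.43, 4.45 and 3.51 CPM at P3 and 146, 193 and 174 CPM at 3m (log2 fold change 5.94, SE 0.40, adjusted p = 3.96e-06). At 3m, 98.3% of its annotated UMIs were in oligodendrocytes, and at P3 62.3% were in OPC and 35.9% in astroglia. *Sox8* measured 35.7, 34.6 and 42.6 CPM at P3 and 57.8, 82.7 and 88.5 CPM at 3m (1.21, SE 0.18, adjusted p = 4.59e-04). Its UMIs were 94.3% astroglial at P3 and 80.6% oligodendrocytic at 3m, whereas its level within astroglia did not pass the threshold.

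The other 6 called members fell: *Sox4* (-3.78), *Sox11* (-3.67), *Sox21* (-2.37), *Sox9* (-1.37), *Sox5* (-1.24) and *Sox2* (-1.23). *Sox9*, *Sox5* and *Sox2* were thus called in the whole preparation and not within astroglia, where the difference between these comparisons was not tested. *Sox17* (-0.63, adjusted p = 0.0761) and *Sox18* (-0.60, adjusted p = 0.158) were not called, and END_17 at 3m and END_7 at P3 held 98.1% and 94.5% of the UMIs of *Sox17*. *Sox2ot*, the non-coding gene around *Sox2*, rose (2.86, SE 0.18) while *Sox2* fell. It stood at 530 CPM in 3m oligodendrocytes and 59.7 to 62.8 CPM in astrocytes of both ages, and *Sox2* at 61.0 CPM in those oligodendrocytes. Both lie on the same strand, so reads from a stretch that both share cannot be assigned with certainty.

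Genes known to act with Sox factors were counted in the same comparisons. In astroglia, where 32.1% of all genes tested were called in either direction and 16.3% lower, of 7 genes of the *Sox9* and nuclear factor I gliogenic programme, 1 fell (*Apcdd1*, -1.21) and 0 rose, with a median of -0.60 beside -0.04 over all genes. *Nfia* (-0.82), *Nfib* (-0.60) and *Nfix* (-0.93) were not called. Of 6 SoxB1 progenitor partners and targets, 1 fell, the intermediate filament gene *Nes* (-6.59), while *Pou3f2*, a POU partner of SoxB1 factors, stood at -0.01. Among *Sox10* partners in the oligodendrocyte lineage, *Myrf*, a myelin regulatory factor induced by *Sox10*, rose (3.07), while *Olig2* (-3.19) and *Cspg4* (-1.75) fell, in the sums whose oligodendrocyte markers are given above. Of the 2 tested of 3 SoxC targets, *Tubb3* rose (2.38) and *Tead2* fell (-4.55). *Tubb3* is also among the 6 neuron markers, which summed to 23.3 to 38.0 CPM at 3m and 13.7 to 15.2 CPM at P3. Of the 5 neuron markers tested, 3 were called higher (*Tubb3*, *Snap25* and *Gad1*) and 0 lower. Whether RNA of other cells had a part in the *Tubb3* value was not tested. In the whole preparation *Myrf* rose (8.80) and *Cspg4* fell (-1.80). Of 4 tested of the 8 SoxF targets, 2 fell in astroglia, and of 7 tested of 10 other *Sox* family genes 1 fell, *Sox3*.

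Finally, the genes most like each member were sought over 16 pooled profiles of class and age, among 7665 genes with at least 50 CPM in some profile. The profiles share libraries and differ in depth, and Pearson's r of log2(CPM + 1) is given as a description. For *Sox17* the closest were *Cdh5* (r = 0.996) and *Erg* (0.996), both endothelial genes, and for *Sox18* *Slc16a4* (0.983). *Sox10* was closest to *Enpp6* (0.924) and *Gjb1* (0.915), genes of the oligodendrocyte lineage, and *Sox8* to *Nkx2-2* (0.898) and *Olig1* (0.884). *Pou3f2* was the closest gene to both *Sox21* (0.973) and *Sox9* (0.956). *Sox2* was closest to *Me1* (0.964), *Sox5* to *Nr2f1* (0.910), *Sox4* to *Jpt1* (0.933) and *Sox11* to *Arxes1* (0.949). Between members, r was 0.945 for *Sox17* with *Sox18*, 0.926 for *Sox21* with *Sox9*, 0.900 for *Sox2* with *Sox9* and 0.749 for *Sox4* with *Sox11*.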

How the data were processed

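The deposited table holds UMI counts per gene and cell barcode, which the authors made with Cell Ranger on the mm10 genome, together with per-cell annotation from Seurat (cluster, astroglial sub-cluster; version 3.1.1 in the submitters' processing notes, a later one in the study's methods). The deposited pseudotime score has no unit and was computed by the authors with Slingshot. The authors kept cells with more than 500 genes and under 10% mitochondrial UMIs. Doublets were not called here. Members and gene lists were chosen with earlier results of these data known. The 10 listed *Sox* genes are all named, other family genes only where a result turned on them, and for each member the 3 genes with the highest correlation were sought.

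Counts were summed per library and cell class as deposited and tested with edgeR 4.0.16 (R 4.3.3; quasi-likelihood test, TMM scaling, filterByExpr), adjusting over all genes tested (Benjamini-Hochberg), and calls needed an adjusted p of at most 0.05 and a 2-fold change. The cycling and regional fits carried the library as a block, since both sums of a library come from the same animals. Lists, tested as counts only, covered SoxB1, SoxC, *Sox9* and SoxF partners or targets, other *Sox* genes, and markers of cell types, and of *Sox10* partners single genes are given, since the count over that list is not reported here. The labels gave no batch. Cells were thinned to 2000 UMIs by seeded draws. Alternatives were RLE scaling, no scaling, no low-count filter, DESeq2 1.42.0, each library left out, thinned totals, other cell selections, and 5 selections added after seeing the data. Tests were checked on simulated counts. Intervals cover counting error only. Gene models came from GENCODE (GRCm38) and promoters from RefSeq (GRCm38.p6).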

Additional observations from a re-analysis of the deposited data

Results flagged for a closer look

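Of the 7 members tested, 3 differed between telencephalic and non-telencephalic astroglia in their age difference, by the test of the interaction itself. For *Sox4* the interaction was 2.62 on the log2 scale, for *Sox8* 0.83 and for *Sox9* -0.83, with 21.6% of all genes tested passing the same adjusted p threshold. *Sox4* alone also exceeded 2-fold, and 1 cell held 12 of its 21 UMIs in the non-telencephalic sum of 3m replicate 3.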

How the results depend on the processing

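Of 539 values for single members under the alternatives, 519 kept their direction and their side of the threshold, 4 passed it newly, 1 lost it and 15 changed sign, each of the 15 among values that were not called. The cause of these changes was not tested. In astroglia, *Sox9* was 0.027 without P3 replicate 3 (-0.41 to 0.027 with each library left out), and *Sox10* was -0.50 without 3m replicate 3 (-0.50 to 0.68), -7.27 under the stricter cell filter and -0.19 without sub-clusters 4, 12 and 16. In the endothelium, *Sox2* was -0.077 without 3m replicate 2 (-0.077 to 1.42 with each library left out) and -0.72 over all 4 endothelial clusters. In the cycling comparison, *Sox4* and *Sox8* were -0.053 and -0.045 without scaling, -0.032 and -0.023 without the low-count filter, and -0.028 and -0.0049 with cells thinned to 1000 UMIs. In the regional interaction, *Sox11* was -0.016 without sub-cluster 16 and -0.61 with each age in its own sub-clusters, and *Sox5* was -0.028 without 3m replicate 2 (-0.028 to 0.56). Newly called were *Sox17* (1.03 and 1.08) and *Sox9* (-1.04 without 3m replicate 2) in the endothelium and *Sox9* (-1.04) in the regional interaction with sub-clusters 6 and 8 counted as telencephalic.

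Members called in the cycling comparison numbered 0 without cells bearing OPC markers, and in the regional interaction 2 without the low-count filter and 2 with sub-clusters 6 and 8 counted as telencephalic. All genes called in astroglia were 4344, and 2720 after thinning to the smallest total. Leaving out each library in turn gave 3 to 3 members called in astroglia, 8 to 8 in the whole preparation, 2 to 3 in the endothelium, 1 to 1 in the cycling and 1 to 1 in the regional comparison, and 3234 to 4257, 4700 to 5587, 1580 to 2312, 1874 to 2183 and 1248 to 1792 genes in all. Without scaling, calls that were higher made up 38.6% in astroglia (49.3% with it) and 43.6% in the whole preparation (53.3%), and the median over all astroglial genes moved from -0.04 to -0.24.

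Whether the replicate numbers pair the samples cannot be told from 3 libraries per age. Same-numbered libraries had correlations of 0.206, 0.0993 and 0.0390, and the other pairs -0.173 to 0.142. Replicate 1 of 3m was most like P3 replicate 1, while 3m replicate 2 was most like P3 replicate 3 (0.142). With the replicate number as a block, 4563 genes were called in astroglia, 5729 in the whole preparation and 2511 in the endothelium, and members called stayed at 3, 8 and 2. Few UMIs stand behind the *Sox17*, *Sox18* and *Sox10* values in astroglia. The adult values outside the telencephalon rest on 17, 261 and 50 cells in 3m replicates 1, 2 and 3.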

Other observations

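Cluster LOW_23, whose cells carried the 5 ependymal markers, held *Sox9* at 820 CPM over its 31 P3 cells. Sub-cluster 14 came from 3m replicate 1 for 182 of its 184 cells, so its *Sox* levels are those of that library.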
